A study of Mus musculus with 2 samples.

Results

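The interferon response genes are 48 mouse genes that cells switch on after sensing interferon. They were found through the RefSeq accession printed for each non-control probe, matched to the gene's accessions, out of 22907 genes that could be named on the arrays in this way. Of the 48, 44 had at least 1 named probe, with 62 probes in all. For Mx1, Mx2, Ifitm2 and Tgtp1 no probe was matched, and they have no value here. The gene table, built on the C57BL/6J genome, lists Mx1 and Mx2 as transcribed pseudogenes with non-coding accessions only, so array probes filed under older coding accessions of either gene would be missed by this match.

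Total RNA came from whole pancreas of male C57BL/6 mice aged 5 weeks. One group was WT. The other, called Nrdc-cKO, was Ptf1a-Cre; Nrdc flox/flox, which deletes the gene of the metalloprotease nardilysin, and was made to learn what that enzyme does in the exocrine gland. Ptf1a is active in the progenitors of pancreatic epithelium and in acinar cells, so immune, vascular and connective tissue cells of a Nrdc-cKO pancreas are not themselves targets of the deletion. The labels name no Cre or floxed allele for the WT animal and do not say whether an RNA sample was a pool.

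Each group had 1 array, so every difference below sets 1 array against another, without a test or an error between animals. The only errors at hand are technical. Repeat spots of a probe gave a log2 difference with a median SD of 0.032 over 291 probes, and the scanner software's error model gave 0.20 to 0.34 for member probes detected on both arrays. All 62 member probes had 1 spot each. The Nrdc-cKO array was the brighter one, though not at every probe. Its 75th percentile stood at 7.83 on the log2 scale of the processed signal against 6.15 on the WT array, so a signal ratio of 3.21 corresponds to no difference after scaling. In what follows, a level is the log2 processed signal minus the array's own 75th percentile, and a difference is the Nrdc-cKO level minus the WT level. Detected means well above background by the scanner software's flag.

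Interferons are secreted proteins that act through cell surface receptors, the Janus kinases and transcription factors of the STAT family. Type I interferons chiefly assemble a complex, with STAT2 and IRF9 among its parts, that binds the interferon-stimulated response element (ISRE) in the promoters of antiviral genes. Interferon gamma chiefly acts through the gamma-activated site (GAS), and from there induces IRF1, the guanylate-binding proteins (Gbp genes) and the immunity-related GTPases. Both classes overlap widely in what they induce.

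Promoter sequences are shown for 9 members because they hold the ISRE-type or GAS-type letters that mark these 2 modes of control. They were read from the RefSeq promoter table (GRCm38.p6), 5′ to 3′ on the gene's strand, and cover the 110 bases just before the annotated start. Capitals mark matches to GAAANNGAAA, the ISRE-type motif, or to TTCNNNGAA, the GAS-type motif, on either strand. The first 4 carry ISRE-type matches and are targets described below, and Oas1a among them also has a GAS-type match. Next come 3 immunity-related GTPases with both motifs and then 2 genes with a GAS-type match only.
Isg15, chr4:156200819-156200928, minus strand: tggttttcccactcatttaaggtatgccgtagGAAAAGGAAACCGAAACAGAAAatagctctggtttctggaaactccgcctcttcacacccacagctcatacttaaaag
Ifit1, chr19:34640779-34640888, plus strand: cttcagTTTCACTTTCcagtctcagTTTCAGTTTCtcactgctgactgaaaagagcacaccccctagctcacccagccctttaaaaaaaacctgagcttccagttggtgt
Oas1a, chr5:120907526-120907635, minus strand: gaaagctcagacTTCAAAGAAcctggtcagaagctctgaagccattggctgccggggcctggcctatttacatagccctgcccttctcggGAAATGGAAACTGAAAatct
Gbp2, chr3:142620553-142620662, plus strand: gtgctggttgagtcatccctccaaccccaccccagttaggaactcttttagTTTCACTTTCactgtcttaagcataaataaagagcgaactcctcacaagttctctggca
Igtp, chr11:58199446-58199555, plus strand: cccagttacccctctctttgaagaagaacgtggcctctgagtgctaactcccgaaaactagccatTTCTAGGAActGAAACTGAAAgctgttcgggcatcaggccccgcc
Irgm2, chr11:58214867-58214976, plus strand: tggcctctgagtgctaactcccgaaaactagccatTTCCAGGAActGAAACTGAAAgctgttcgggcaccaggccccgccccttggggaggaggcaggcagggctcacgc
Tgtp1, chr11:48992247-48992356, minus strand: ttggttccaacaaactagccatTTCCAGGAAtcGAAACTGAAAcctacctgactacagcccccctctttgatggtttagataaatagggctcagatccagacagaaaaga
Irf1, chr11:53769904-53770013, plus strand: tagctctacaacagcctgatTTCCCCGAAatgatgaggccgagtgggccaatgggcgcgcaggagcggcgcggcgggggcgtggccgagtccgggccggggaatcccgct
Isg20, chr7:78913314-78913423, plus strand: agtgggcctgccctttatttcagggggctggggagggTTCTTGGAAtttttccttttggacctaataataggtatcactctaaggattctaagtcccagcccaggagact

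The table held promoters for 36 of the 48 members, in 44 windows, and the 250 bases before each start were searched. An ISRE-type match lay upstream of 19 of the 36 genes, and 9 of these had 2 or more matches. Over all 32851 promoter windows of the table, 2.98% held such a match, against 43.2% of the 44 member windows. GAS-type matches lay in 22.7% of member windows and 7.02% of all windows. By class, an ISRE-type match was found for 11 of 25 type I targets and 8 of 10 gamma-type targets, and a GAS-type match for 4 of 25 and 6 of 10. The capitals of Isg15 join 3 overlapping ISRE-type matches into 1 block, and those near the start of Oas1a join 2. In 1 member window, that of Bst2, an ISRE-type and a GAS-type match overlapped. These are matches of letters in a fixed window, and neither binding nor use of a site was measured.

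Igtp, Irgm2 and Tgtp1 shared an arrangement of both motifs. In each, a GAS-type match is followed by an ISRE-type match whose first base lies 11 bases further on. Only 5 of the 32851 windows of the table had these motifs in this order at this spacing, and the other two were those of Tgtp2 and Gm12185. The spacing was noticed in these windows and then counted. These genes are related copies. The windows of Igtp and Irgm2 shared an identical run of 55 bases, Irgm2 and Tgtp1 one of 20 bases, and Igtp and Tgtp1 one of 14 bases. Tgtp2, a close copy of Tgtp1 that does have a probe, had WT and Nrdc-cKO signals of 166 and 2628, a difference of 2.30. Gm12185 was not well above background on either array.

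**Figure D1:**
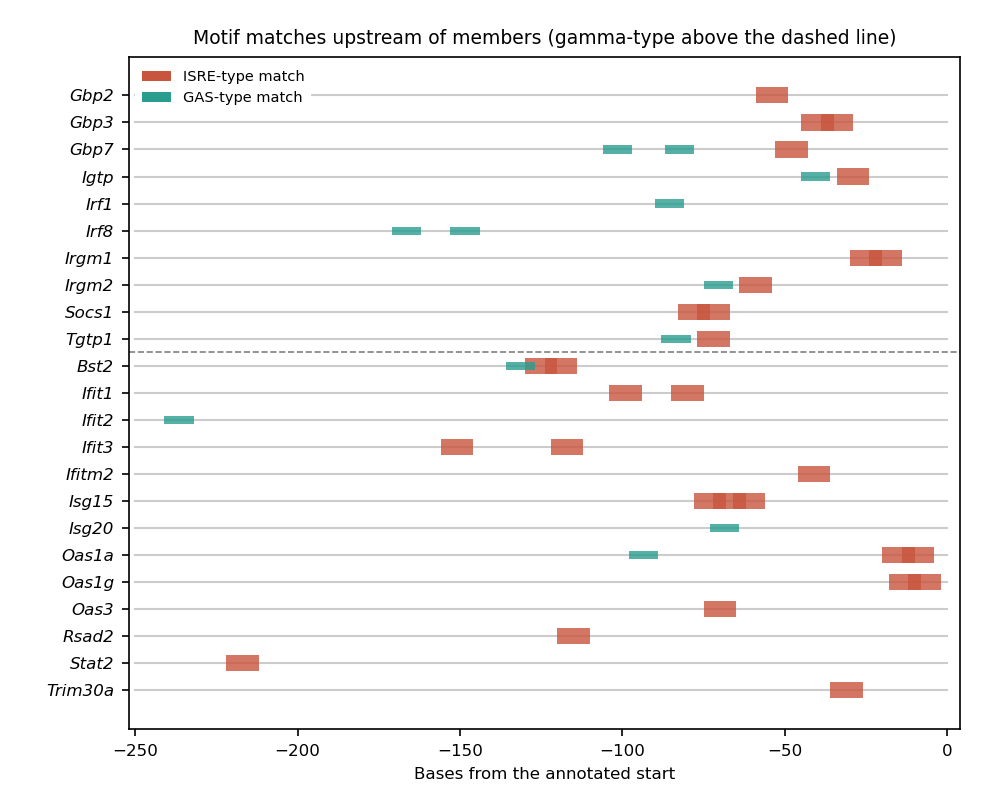
Positions of ISRE-type matches (tall bars) and GAS-type matches (short bars) in the 250 bases before the annotated start, for each member with a match. Gamma-type members are above the dashed line, and the horizontal axis counts bases from the start. Igtp, Irgm2 and Tgtp1 have the GAS-type match directly ahead of the ISRE-type match.

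The Nrdc-cKO array had higher levels of most interferon response genes. Both arrays measured 36 members, of which 30 were higher by 2-fold or more and 0 were lower by that much. Across all 12997 genes measured on both, the share higher by 2-fold or more was 12.8% and the share lower was 17.3%. The members' median difference was 1.81 (3.51-fold), against -0.18 for all genes. Their differences ran from -0.26 for Isg20 to 2.88 for Irf8, and 35 of 36 were above 0, as were 41.3% of all genes. The other 8 members with a probe were above background in Nrdc-cKO alone, and no member was so in WT alone. Of all 22907 named genes, 2834 were above background in Nrdc-cKO alone and only 200 in WT alone. For these 8 a lower bound was taken against the higher of the probe's own WT level and the lowest level detected on that array. For Ifit1, Irf5 and Dhx58 the probe's own WT level was the higher. Their bound is therefore the plain difference and no lower limit, with software errors of 0.37, 0.39 and 0.38. The bound reached 2-fold for 6 of the 8, as it did for 22.1% of the 2834 genes with detection in Nrdc-cKO alone.

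**Figure D2:**
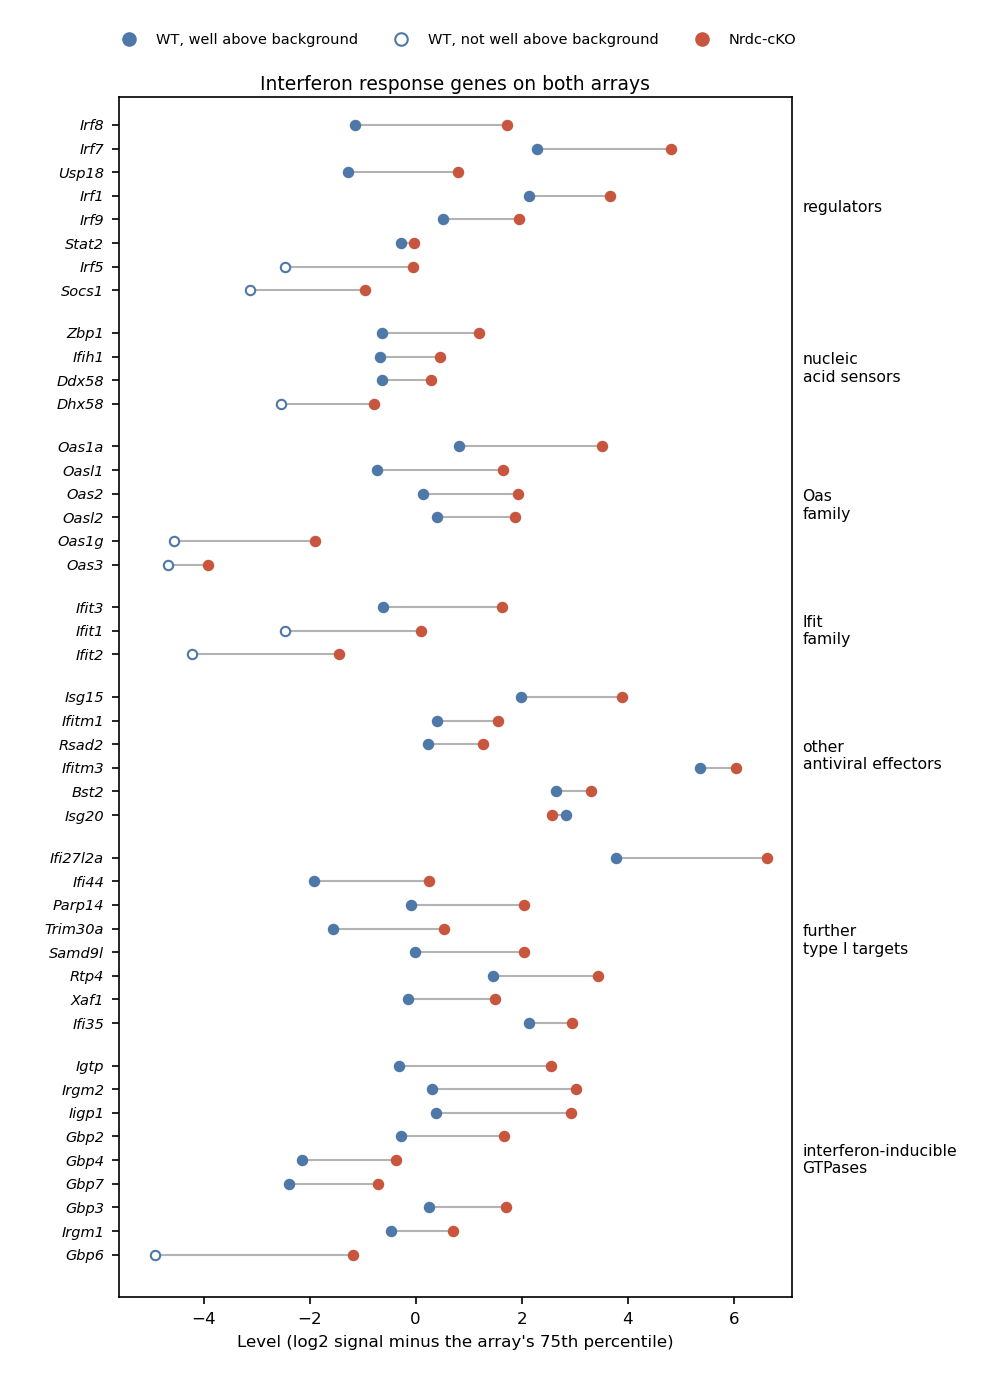
Level of each member with a probe on the WT and Nrdc-cKO arrays (log2 signal minus the array's 75th percentile, 1 array per group, no error bars), grouped by role. Open circles mark the 8 members not well above background on the WT array. The Nrdc-cKO point lies to the right of the WT point for every member drawn but Isg20.

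The regulators come first, because they carry the signal from the receptor to the target genes. Irf7, the factor that amplifies type I interferon production, had WT and Nrdc-cKO signals of 348 and 6411, in the order used from here on, and a difference of 2.52. A second probe, above background in Nrdc-cKO alone, was at least 6.41-fold higher. Irf8, a factor of myeloid cells that interferon gamma also induces, had signals of 32.0 and 756, a difference of 2.88. Both genes were thus clearly brighter on the Nrdc-cKO array, past the 3.21 ratio between the arrays.

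Irf1, an early target of interferon gamma and itself a transcription factor, had signals of 313 and 2888, a difference of 1.52. Its dimmer second probe had a bound of at least 2.65-fold. Irf9, the DNA-binding part of the type I complex, had differences of 1.42 and 1.46 on its 2 probes.

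Stat2, another part of that complex, had 2 probes that went opposite ways. The brighter one had signals of 142 and 942, a difference of 1.04, and the dimmer one 23.9 and 52.9, a difference of -0.54. The gene mean of 0.25 therefore has no settled direction, and the brighter probe alone was just past 2-fold. Stat2 was the only one of the 7 members with several probes detected on both arrays whose probes differed in sign.

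Irf5, a factor of macrophages and B cells, was detected on the Nrdc-cKO array only, 5.31-fold higher by plain difference. Feedback genes were higher as well. Usp18, which removes ISG15 from proteins and blunts receptor signalling, had signals of 29.3 and 394, a difference of 2.07. Socs1, an inhibitor of Janus kinases, was detected on the Nrdc-cKO array only, at least 3.18-fold higher.

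The sensors of viral nucleic acid ran from below 2-fold to just above the members' median. Zbp1, which senses Z-form nucleic acid, had signals of 45.7 and 522, a difference of 1.83. Ifih1, the RNA sensor MDA5, had signals of 44.3 and 311, a difference of 1.13. Ddx58, the RNA sensor RIG-I, had a mean difference of 0.91 over 3 probes from 0.47 to 1.23, short of 2-fold. Their relative Dhx58 was detected on the Nrdc-cKO array only, 3.40-fold higher by plain difference.

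Oligoadenylate synthetases make a small RNA-like messenger when they meet double-stranded RNA. Their family here also holds the synthetase-like genes Oasl1 and Oasl2, and 4 of its 6 members were measured on both arrays. All 4 were at least 2-fold higher. Oas1a had signals of 125 and 2600, a difference of 2.70. Oasl1 followed at 2.38, Oas2 at 1.79 and Oasl2 at 1.46. A second Oas2 probe was not well above background on either array. Averaging it in would bring Oas2 to 0.26, below 2-fold.

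Oas1g and Oas3 stood above background in Nrdc-cKO alone. Oas1g had a bound of at least 1.66-fold, and the Oas3 signal, 15.1 on the Nrdc-cKO array, was too dim for any bound. Oas1a and Oas1g are neighbouring and similar genes, so their probes may take up each other's transcripts.

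The Ifit proteins bind foreign RNA ends and stop its translation. Ifit3 had signals of 46.5 and 701, a difference of 2.23. Ifit1 and Ifit2 were not well above background on the WT array. Their signals of 243 and 83.6 on the Nrdc-cKO array gave a plain difference of 5.94-fold for Ifit1 and a bound of at least 2.28-fold for Ifit2. Of the 3 members of the family, only Ifit3 was measured on both arrays.

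Among other antiviral effectors the differences were more mixed. The ubiquitin-like modifier Isg15 had signals of 282 and 3399, a difference of 1.91, or 3.75-fold. Rsad2 (viperin), an enzyme that makes a chain-terminating nucleotide, had a difference of 1.04 on its detected probe. A second Rsad2 probe, detected on the Nrdc-cKO array only, had a bound of at least 1.81-fold.

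The membrane proteins that block virus entry or release were less apart. Ifitm3 had signals of 2928 and 15008, a difference of 0.67, and Bst2 (tetherin) had 444 and 2267, also a difference of 0.67. Ifitm1 stood at 1.14. These members lay below the members' median of 1.81, with only Ifitm1 past 2-fold. Each still lay above 0.41, the 75th percentile of the differences of all genes.

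Isg20, an exonuclease that degrades RNA, was the one member below 0. Its probes had signals of 248 and 639, and of 1022 and 2848, with differences of -0.32 and -0.21. Its sign depends on the scaling, since the mean of -0.26 became 0.03 with loess, 1.62 when scaled on the spike-in probes, 0.23 on the deposited value table and 0.15 after normexp background correction with the 75th percentile. It stayed below 0, at -0.042, after normexp with quantile scaling, and at -0.049 after quantile scaling alone.

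Of 8 further type I targets, 7 were at least 2-fold higher. Ifi27l2a, a small membrane protein, had signals of 977 and 22558, a difference of 2.85. Ifi44 stood at 2.18, the ADP-ribosyltransferase Parp14 at 2.14, the ubiquitin ligase Trim30a at 2.09, Samd9l at 2.06, the receptor-transporting protein Rtp4 at 1.98 and Xaf1, a binding partner of an apoptosis inhibitor, at 1.64. Ifi35, at 0.80 with its 2 probes at 0.79 and 0.82, was the one short of 2-fold.

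The interferon-inducible GTPases, which attack vacuoles that hold intracellular parasites and bacteria, had no measured member short of 2-fold. The 8 differences ran from 1.17 for Irgm1 to 2.87 for Igtp. After normexp background correction 3 of them fell short, with Gbp4 at 0.50 and 0.90, Gbp7 at 0.34 and 0.63 and Irgm1 at 0.78 and 0.79 under 75th percentile and quantile scaling. Igtp had signals of 56.7 and 1333, Irgm2 had 87.1 and 1845 with a difference of 2.72, and Iigp1 had 92.4 and 1745 with a difference of 2.56. These 3 immunity-related GTPases lay above each guanylate-binding protein measured.

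Among the Gbp genes, Gbp2 stood at 1.96, Gbp4 at 1.78, Gbp7 at 1.67 and Gbp3 at 1.45. Gbp6 was detected on the Nrdc-cKO array only, at least 2.73-fold higher. The 3 probes of Irgm1 gave 0.91, 1.21 and 1.38. Gbp10, a similar neighbour of Gbp6 that is not a member, went the other way at -1.23, and probes of these genes may take up each other's transcripts. In gene order along the chromosomes, Gbp7, Gbp3 and Gbp2 lie within a few genes of each other, as do Gbp4 and Gbp6, Igtp and Irgm2, Ifit2 and Ifit3, and the Ifitm genes.

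Type I and gamma-type targets were then set side by side. The gamma-type class held the 10 GTPases with Irf1, Irf8 and Socs1, and the type I class held the other members except Irf5. The medians were 1.81 over 26 type I targets and 1.87 over 10 gamma-type targets, a gap of -0.06. All 10 gamma-type targets were at least 2-fold higher, as were 20 of 26 type I targets, and the 6 members short of 2-fold were all in the type I class. With normexp these counts became 7 of 10 and 19 of 26 under the 75th percentile, and 7 of 10 and 18 of 26 under quantile scaling. The range was 1.17 to 2.88 for gamma-type and -0.26 to 2.85 for type I targets, so the classes overlapped over nearly all of the gamma-type range. The gap between the medians was wider with normexp background correction, -0.49 with 75th percentile and -0.40 with quantile scaling, and -0.58 among bright probes only. No test of the difference between classes is possible with these arrays.

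**Figure D3:**
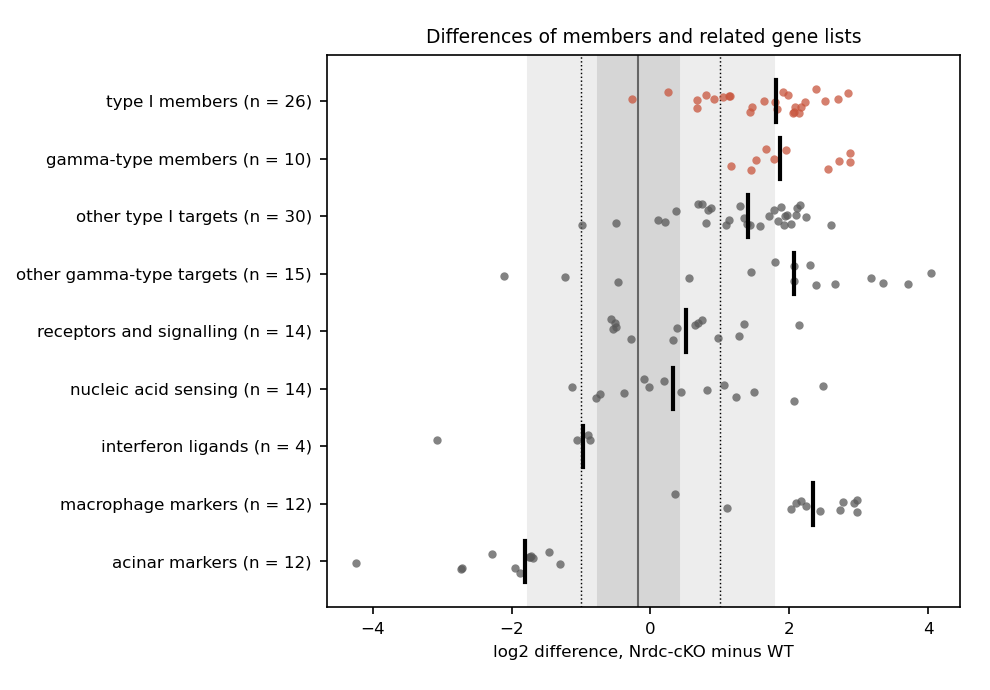
Log2 difference (Nrdc-cKO minus WT) of each gene measured on both arrays, for both target classes of members and for related lists, with a black bar at the median. Dark and light grey bands span the middle 50% and 90% of all genes, the grey line is their median, and dotted lines mark 2-fold. All gamma-type members lie right of the upper dotted line, and the receptors spread around it and 0.

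Other targets outside the member list went the same way less evenly. Among 30 other type I targets measured, 20 were higher by 2-fold or more and 0 were lower. Their median was 1.41, and they were led by Slfn2 (2.60) and Ifit3b (2.24). Among 15 other gamma-type targets, 11 passed 2-fold upward and 2 downward, and the median was 2.07. The class II transactivator Ciita (4.05), the chemokine Cxcl10 (3.71) and the inflammatory caspases Casp1 (3.35) and Casp4 (3.18) had the largest differences.

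Within the immunoproteasome the subunits split. Psmb8 had signals of 62.2 and 1261, a difference of 2.66, and Psmb9 stood at 1.45. Psmb10 had signals of 21246 and 15753, lower even before scaling, with a difference of -2.12. Whether that probe reads only Psmb10 was not tested.

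Upstream of the targets, 14 of 15 receptor and signalling genes were measured on both arrays. Of these, 3 were higher by 2-fold or more, 0 were lower, and the median was 0.51. Ifngr1, the ligand-binding chain of the gamma receptor, stood at 1.35 and its partner Ifngr2 at 0.33. The type I receptor chains Ifnar1 and Ifnar2 stood at 0.65 and 0.97. The feedback inhibitor Socs3 stood at 2.14. The median of these 14 genes lay between that of all genes and that of the members.

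Of 16 genes of nucleic acid sensing, 14 were measured on both arrays. Of these, 5 were higher by 2-fold or more, 1 was lower, and the median was 0.32. The adaptor Sting1 had signals of 74.1 and 1335, a difference of 2.49. Its upstream enzyme Cgas stood at 1.49, the nucleases Trex1 and Samhd1 at 1.23 and 1.06, and the endosomal receptor Tlr7 at -1.13. The Tlr7 value rests on the 1 of its 3 probes that was detected on both arrays. Averaged over all 3 probes, Tlr7 levels went the other way, at -2.20 in WT and -1.87 in Nrdc-cKO.

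Most of the interferon genes themselves were not well above background. Of 20 ligand genes, 17 had a probe and 10 of these were not well above background on either array, among them Ifnb1, with signals of 2.26 and 3.60. Ifna1, Ifnab and Ifng were above background in Nrdc-cKO alone. Their signals there, 27.3, 30.2 and 14.2, were too dim for a bound. Of the 4 ligands detected on both arrays, 0 were higher. Ifna9 stood at -3.07, Ifna5 at -1.05, Ifna14 at -0.90 and Ifnl3 at -0.86. Before scaling, Ifna5 (13.1 and 20.3), Ifna14 (23.3 and 40.1) and Ifnl3 (51.5 and 90.9) were brighter in Nrdc-cKO, and Ifna5 and Ifna14 were dim. The Ifna genes are near-identical copies, so single values are uncertain. The Ifna9 probe had signals of 7254 and 2777, lower even before scaling. Whether that probe reads only Ifna9 was not tested.

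Nrdc itself had signals of 270 and 93.9, a difference of -3.21, on 1 probe. The labels do not give the deleted exons, so a probe outside them checks nothing. The tissue carried its acinar identity on both arrays, with all 12 acinar markers detected on both. After scaling, all 12 were lower on the Nrdc-cKO array, with differences from -4.25 to -1.30. Before scaling, signals were nearly equal for some, such as Cpa1 at 288936 and 287240. Rbpjl was higher in Nrdc-cKO at 9999 and 13085, and Pnlip was lower at 269531 and 45515. The housekeeping genes lay between -0.47 and 0.77, apart from B2m, the class I light chain and itself an interferon target, at 2.42.

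Markers of several other cell types were also higher on the Nrdc-cKO array. Of 12 macrophage markers measured, 11 were higher by 2-fold or more. For each list the scaled signal, relative to the array's 75th percentile, was summed over genes with a probe. It was taken from the probes detected on both arrays, or from all of a gene's probes where none was. The macrophage sum was 31.1 in WT and 119 in Nrdc-cKO, and that of the members was 113 and 350. Without the gene brightest in Nrdc-cKO, C1qc and Ifi27l2a in turn, these sums were 26.9 and 98.9, and 99.0 and 251. The macrophage median of 2.35 stood above the members' median of 1.81, without a test. In whole tissue, more cells of a type and more RNA per cell cannot be told apart.

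Dendritic cell and lymphocyte markers were mostly dim. Of 7 conventional dendritic cell markers, 6 were above background in Nrdc-cKO alone and Xcr1 on neither array, with sums of 0.50 and 1.15. The bound was past 2-fold for Itgax, at least 4.68-fold higher. Plasmacytoid dendritic cell markers, from the cell type that makes most type I interferon, were split, with 2 of 5 at least 2-fold higher. These were Clec4b1 (3.15) and Cox6a2 (3.08), and Spib was above background in Nrdc-cKO alone, at least 5.98-fold higher. Whether other cell types supply these transcripts was not tested. Siglech, the defining marker of plasmacytoid dendritic cells, had a difference of -0.04 with signals of 15840 and 49633, and Pacsin1 stood at -0.95. Each value rests on 1 of 2 probes, since the other was not detected on both arrays. Averaged over both probes, levels in WT and Nrdc-cKO were 1.55 and 0.93 for Siglech and 0.69 and 1.70 for Pacsin1. Whether the brighter Siglech probe reads only Siglech was not tested. The sums, 290 and 262, were mostly Siglech, and without it they were 65.9 and 43.5.

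Of 3 T cell markers measured, 0 were higher by 2-fold or more and 1 was lower, with sums of 13.8 and 11.4. Another 6 were above background in Nrdc-cKO alone, 2 of them past 2-fold, Cd2 at least 8.97-fold and Lck at least 2.02-fold higher. Natural killer cell markers were higher in 1 of 3 and lower in 1, with sums of 3.36 and 3.61, Nkg7 was at least 6.64-fold higher by its bound, and Ncr1 and Gzmb were detected on neither array. B cell markers were higher in 0 of 2 and lower in 1, with sums of 1.23 and 6.06, and Ms4a1 and Cd79b had bounds of at least 9.38-fold and 21.0-fold. Lymph node markers had 1 of 2 each way and sums of 4.18 and 24.9, with Cxcl13 and Ccl19 higher by bounds of at least 91.5-fold and 6.99-fold. Cd8a, Blk and Madcam1 were detected on neither array.

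Neutrophil markers had 1 of 2 each way, with sums of 4.87 and 8.29, S100a8 and Mpo past 2-fold by their bounds, and Cxcr2 detected on neither array. Endothelial markers were higher in 3 of 7 (sums 10.1 and 22.5), fibroblast markers in 6 of 6 (168 and 644), adipocyte markers in 2 of 3 with 1 lower and 4 more past 2-fold by their bounds (9.51 and 356), and islet markers in 7 of 7 (378 and 2894). Duct markers were higher in 2 of 6 and lower in 1. The duct sums, 31.7 and 176, were mostly Spp1, a gene other cells also express, and without it they were 9.31 and 12.01. Genes of the immediate early and heat shock responses, which handling of tissue can induce, were higher in 9 of 11 (66.8 and 211). The part of each of these in the interferon response result was not tested.

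The motif was also set against the differences of genes outside the list. Of 303 measured non-member genes with an ISRE-type match, 19.1% were higher by 2-fold or more and 14.5% lower. Of 10017 without a match, these shares were 11.7% and 17.3%. For the GAS-type motif the shares higher were 14.6% of 727 genes with a match and 11.8% of 9593 without. The shares lower were 18.2% with a match and 17.1% without. Among members measured on both arrays, those with an ISRE-type match had differences from 0.25 to 2.87 (n = 13) and those without from -0.26 to 2.88 (n = 15), with medians of 1.91 and 1.46. For the GAS-type motif the members' medians were 2.19 with a match (n = 8) and 1.45 without (n = 20). The ranges overlapped widely for both motifs, and no test was made. Irf8, the member with the highest difference, had GAS-type matches only, and Irf7 had no match of either motif in its window.

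Scaling set the size of the differences more than their direction. The members' median ran from 1.25 with normexp and quantile scaling to 3.69 with spike-in scaling, under which the median of all genes moved by 1.88 to 1.70. With spike-in scaling 79.5% of all genes were at least 2-fold higher and all 36 members were. Normexp took Ifih1, Rsad2, Gbp4, Gbp7 and Irgm1 below 2-fold under both scalings that followed it, Ifi44 and Trim30a under the 75th percentile and Ifitm1 under quantile scaling, while Ifitm3 passed 2-fold under both and Bst2 and Ifi35 under the 75th percentile. Relative to the median of all genes, the members stood 1.28 to 2.44 higher in the 12 settings.

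**Figure D4:**
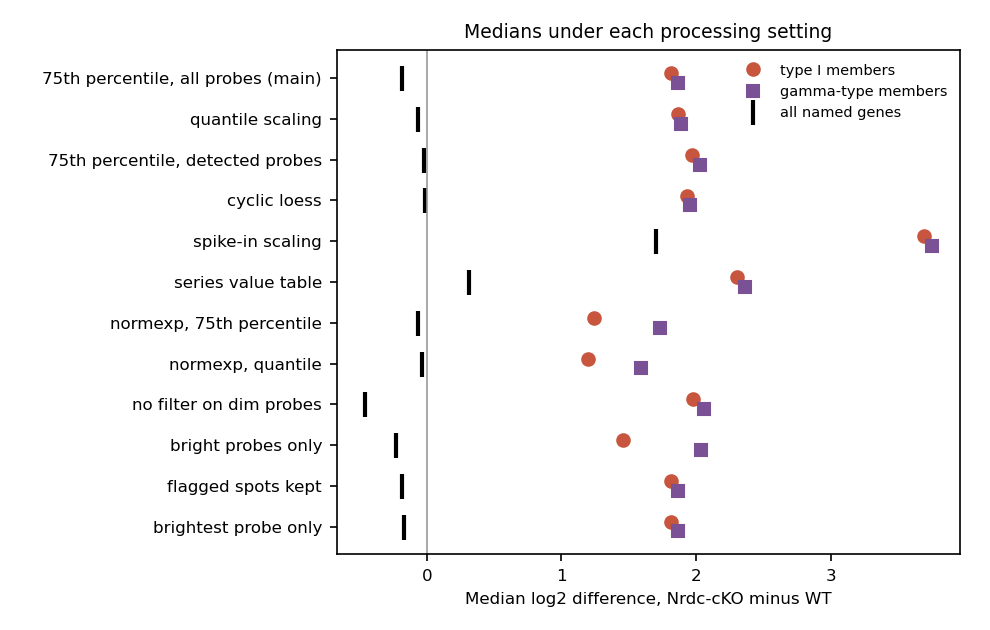
Median log2 difference of type I members (circles), gamma-type members (squares) and all named genes (black ticks) under each processing setting. Both classes lie to the right of all genes in each setting, and both classes and all genes shift together under spike-in scaling.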

How the data were processed

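The authors deposited 1-colour Agilent scanner files, whose processed intensity per spot was background-corrected by Agilent Feature Extraction (12.0.3.1 per the file headers, 11.5.1.1 per the submitters' processing notes) and not scaled between arrays. The authors' deposited flags (other) mark spots well above background, saturated or outlying. The authors' value table proved to be this intensity multiplied by 4.37 on the WT array and by 1.92 on the Nrdc-cKO array, so it is linear and uncentred. No source used here says how the multipliers were set.

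From these, outlier spots were dropped, log2 signals of repeat spots averaged and each array's 75th percentile over 56604 non-control probes subtracted. Detection of a probe required the above-background flag in at least 0.5 of its spots. The value of a gene is the mean difference over probes detected on both arrays, and 2-fold was the threshold. Genes were named through RefSeq accessions (assembly GRCm38.p6), and the array design refers to another build. No member spot was an outlier, and 0 non-control spots were saturated. Loess and normexp (offset 50) used limma 3.58.1, other steps pandas 2.3.3. The gene computation and the motif search were tested on simulated data. Every member may be named. Of the pathway lists, genes past 2-fold and Ifng, Ifnb1 and the type I and gamma receptor chains may be named, and others named here (such as Ifna14, Ifnl3, Psmb9 and the markers) were chosen after their values were seen. Some genes counted in the pathway lists are not reported here by name. Members and lists were chosen with earlier results of these data known.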

Additional observations from a re-analysis of the deposited data

How the results depend on the processing

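No paired analysis was possible because there was a single array per group, which also leaves no replicate to omit. Naming probes by a gene name column was not run, because the scanner files here lack one. The causes of the shifts below were not tested.

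The members' median of 1.81 became 1.86 after quantile scaling, 1.97 when the 75th percentile was taken over detected probes, 1.93 after loess, 3.69 under spike-in scaling and 2.31 on the value table. Normexp background correction gave 1.30 when followed by the 75th percentile and 1.25 when followed by quantile scaling. Keeping dim probes gave 1.98 (44 members), keeping bright probes only 1.52 (25 members) and adding the bounds 1.78 (43 members). The type I minus gamma-type median of -0.06 was -0.024 after quantile scaling, -0.025 after loess, -0.49 and -0.40 after normexp with those same 2 scalings, and -0.58 for bright probes. Members at least 2-fold higher, 30 of 36 above, ran from 25 of 36 (normexp with quantile scaling) to 36 of 36 (spike-in scaling). In these settings 9.03% and 79.5% of all genes were higher by that much. The counts were 21 of 25 for bright probes only and 36 of 44 with dim probes kept, against 10.7% and 13.6% of all genes. At a 4-fold threshold 14 of 36 members were higher, and the share of all genes at that threshold was not computed. Calls lost numbered 7 and 6 after normexp with the 75th percentile or quantile scaling, and 1 (Oas2) when dim probes were kept. Members at least 2-fold lower stayed at 0 in each. Isg20 turned positive, at 0.027 after loess, 1.62 under spike-in scaling, 0.23 on the value table and 0.15 after normexp with the 75th percentile. Signal over background limits the 8 members detected on the Nrdc-cKO array only.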
